A study of Mus musculus with 8 samples.

Results

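The comparison described here set pancreatic stellate cells (PSCs) that had been given medium conditioned by KPC-shBrca2 organoids (shBrca2-CM) against PSCs given medium conditioned by KPC-shControl organoids (shControl-CM). It used 6 of the 8 libraries of the study, 3 per conditioned medium, and every gene with at least 10 counts summed over these 6, which left 11035 of 12160 genes. PSCs are fibroblast-like cells that reside in the pancreas, and those sequenced were an immortalized mouse line grown in Matrigel domes. The cells spent 4 days in growth medium and 4 further days in conditioned medium, and RNA was then measured by MARS-seq, which counts the 3′ ends of mRNA.

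KPC organoids are 3D cultures of cancer cells from a mouse model of pancreatic cancer. They carried either a lentiviral short hairpin RNA against Brca2, a gene of homologous recombination repair, or a non-targeting hairpin, and the labels give no other difference between the groups. The hairpins were in the organoids and not in the sequenced cells, so the level of Brca2 in the PSCs does not check the labels. It measured 31.8, 22.4 and 43.5 CPM (counts scaled to normalized library size) with shBrca2-CM and 36.5, 29.0 and 35.3 CPM with shControl-CM, and the values overlapped. The remaining 2 libraries, from cells that received control medium, are called growth medium below and are quoted only as levels. Their titles point to plain DMEM, whereas their recorded treatment is medium that PSCs had conditioned themselves.

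Tumor fibroblasts respond to what cancer cells secrete. Inflammatory cytokines acting through NF-κB and STAT3 make them release acute phase proteins, chemokines and growth factors, whereas stretch, adhesion and growth factors of the TGF-β and YAP pathways direct them toward matrix production. Changes in CAF subtype, sterol, heat shock and interferon genes are not taken up here as sets, though single genes of these kinds are named below.

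A gene was called differentially expressed (DE) when its adjusted p-value was below 0.1, its log2 fold change exceeded 0.5 in either direction, and its normalized count averaged more than 5. Fold changes are log2 values of shBrca2-CM minus shControl-CM, with their standard error, from edgeR's quasi-likelihood test on 3 against 3 libraries, and adjusted p-values are Benjamini-Hochberg values over all 11035 genes. By this definition 345 genes were DE, or 3.13% of those tested, 174 higher (1.58%) and 171 lower (1.55%) with shBrca2-CM. In all 345 the values of the groups did not overlap, which held for 19.8% of all genes (9.14% higher and 10.6% lower). Genes that fell were the more abundant ones, with a median of 131.3 CPM against 56.85 CPM for genes that rose and 25.37 CPM for all genes. The median fold change of all genes was 0.03, and it was 0.14 when libraries were scaled to their total counts. That scaling called 250 genes higher and 120 lower, so small differences of large gene families are given below beside this shift.

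The libraries did not behave alike. Totals ran from 655996 to 1095534 counts with shBrca2-CM and from 1093609 to 1624392 with shControl-CM, so genes of low expression were measured least precisely in the former. The 3 shControl-CM libraries spread widely on the first principal component, at -8.17, 23.9 and 53.6 against -31.4 to -15.2 for shBrca2-CM. Unlike every other library, shControl-CM replicate 1 correlated slightly more with the other group (mean r 0.954) than with its own (0.950). In shControl-CM replicate 3, 87 genes lay more than 4-fold under their lowest value in the other 5 libraries, while each other library had 0 to 3 such genes (of genes averaging at least 20 CPM there). Osmr and H3f3b were among them, at 27.2 CPM against 158 to 206 and at 20.4 CPM against 124 to 224, and 1 of the 87, Gbp3, was DE (1.60, called in 2 of the 6 fits that leave out a library). Leaving out shControl-CM replicate 1 raised the DE count to 976 and leaving out replicate 3 raised it to 445, with 333 and 311 of the 345 still called. Leaving out any other library lowered it to between 128 and 175. No DE gene changed sign in any of these fits, and 113 of the 345 were called in all 6, while 194 were called in 3 or fewer. Genes of the latter kind are marked below by the number of fits that called them; their calls were lost when a shBrca2-CM library or shControl-CM replicate 2 was left out, and for some also without shControl-CM replicate 1 or 3.

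The cells were checked for their label. All 13 stellate cell and fibroblast markers were measured, with summed levels of 4100 to 4640 CPM with shBrca2-CM and 4988 to 5913 CPM with shControl-CM, and Pdgfra was DE higher while Pdpn, Dcn and Lum were DE lower. Of 18 epithelial markers, 3 could be tested, with summed levels of 59.3 to 94.1 and 57.7 to 70.6 CPM. Of these, the keratin gene Krt19 was DE higher (2.12, called in 3 of 6 fits), at 5.79, 16.2 and 13.3 CPM against 2.56, 3.87 and 2.04 CPM, and at 24.3 and 25.4 CPM in growth medium, where no organoid medium was present. None of 4 leukocyte markers was DE (summed levels of 13 to 29.3 and 24.4 to 40.1 CPM). Of the other cell types, 1 endothelial marker could be tested (2.49 to 10.7 and 3.87 to 7.05 CPM) and 1 acinar marker (54.8 to 83.9 and 59.9 to 63.4 CPM). The 1 Schwann and neural marker tested, the tubulin gene Tubb3, lay higher with shBrca2-CM without overlap, at 40.5, 29.9 and 23.1 CPM against 11.5, 18.4 and 17.0 CPM, but was not DE (1.01 ± 0.31, adjusted p = 0.156). In bulk RNA, fewer cells of a kind and less RNA per cell cannot be told apart, and the part of minor cell types in the results was not tested.

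To describe functions beyond single genes, 52 gene lists covering 1817 tested genes were counted. They held 157 of the 345 DE genes, 66 higher and 91 lower, and 5 lists held none. The plot of list counts shows where the DE genes fell, beside 1.55% lower and 1.58% higher of all genes. Lower calls gathered among acute phase proteins, chemokines, immediate early factors, glycolysis and metal handling. Higher calls gathered among matrix glycoproteins, complement, fibroblast surface proteins and YAP targets. Complement also had 15.4% DE lower. The retinoid (14.3%), imprinted gene (12.5%) and coagulation (12.5%) lists had higher shares no smaller than the 12.5% of the YAP list. Of the 52 lists, 41 had more DE genes without shControl-CM replicate 1 and 36 to 40 had fewer without shControl-CM replicate 2 or any shBrca2-CM library. Several of these counts rested on single libraries: when 1 library was left out, the lower calls ranged from 5 to 7 for acute phase proteins, 0 to 2 for chemokines, 0 to 6 for immediate early factors, 3 to 11 for glycolysis and 3 to 5 for metal handling, and the higher calls from 3 to 13 for matrix glycoproteins, 1 to 3 for complement, 0 to 5 for fibroblast surface proteins and 2 to 3 for YAP targets.

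**Figure D1:**
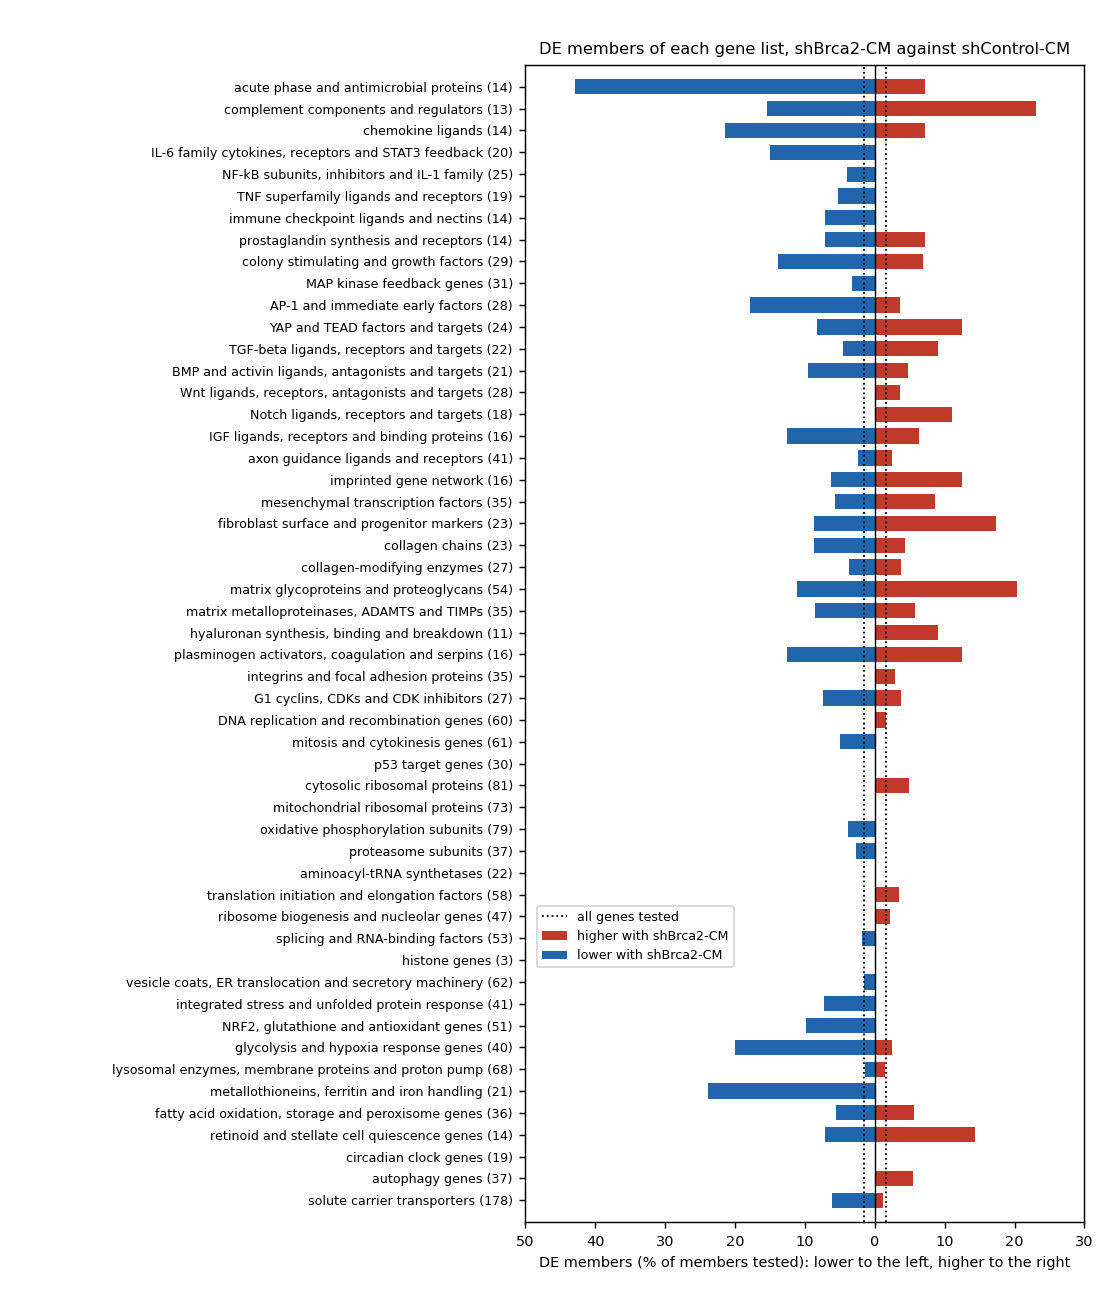
Share of tested members of each of 52 gene lists that were DE (x axis, % of members tested; number tested in parentheses), lower with shBrca2-CM to the left in blue and higher to the right in red. Dotted lines mark the shares among all 11035 genes, 1.55% lower and 1.58% higher. The longest bars are the acute phase proteins on the lower side (42.9%) and complement on the higher side (23.1%), lists of 14 and 13 genes.

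The promoters of several genes that changed are shown first, because their sequences can be read beside the values. They are 300-base windows of RefSeq on GRCm38.p6 (mm10), from 250 bases before to 50 bases after the transcription start, printed 5′ to 3′ on the strand of the gene. Capitals mark matches, on either strand, to κB-type letters (GGANTTTCC or GGAANTTCC, which share some stretches and were counted once where they did) or to the AP-1 letters TGANTCA. The 3 neutrophil-attracting chemokines Cxcl1 (chr5:90890995-90891294, + strand), Cxcl2 (chr5:90903649-90903948, +) and Cxcl3 (chr5:90785851-90786150, +) lie together on chromosome 5. All were DE lower, though the Cxcl1 and Cxcl2 calls held in 3 of 6 fits and the Cxcl3 call in none, and DESeq2 called neither Cxcl2 nor Cxcl3. Ier3 (chr17:35821463-35821762, +) encodes an NF-κB-induced survival factor and fell as well. These 4 windows hold the same κB-type stretch, at -70, -96, -72 and -139 from the start.
Cxcl1: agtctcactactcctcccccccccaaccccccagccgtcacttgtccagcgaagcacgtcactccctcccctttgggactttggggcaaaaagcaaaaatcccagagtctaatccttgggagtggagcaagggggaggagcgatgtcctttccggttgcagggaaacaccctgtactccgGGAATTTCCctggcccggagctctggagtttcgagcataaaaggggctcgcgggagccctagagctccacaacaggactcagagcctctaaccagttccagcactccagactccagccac
Cxcl2: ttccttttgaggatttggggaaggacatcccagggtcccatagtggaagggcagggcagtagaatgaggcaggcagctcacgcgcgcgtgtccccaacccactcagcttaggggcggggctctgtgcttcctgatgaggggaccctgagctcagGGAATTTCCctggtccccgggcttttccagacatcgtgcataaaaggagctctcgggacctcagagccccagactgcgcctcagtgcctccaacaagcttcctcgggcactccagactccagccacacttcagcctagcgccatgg
Cxcl3: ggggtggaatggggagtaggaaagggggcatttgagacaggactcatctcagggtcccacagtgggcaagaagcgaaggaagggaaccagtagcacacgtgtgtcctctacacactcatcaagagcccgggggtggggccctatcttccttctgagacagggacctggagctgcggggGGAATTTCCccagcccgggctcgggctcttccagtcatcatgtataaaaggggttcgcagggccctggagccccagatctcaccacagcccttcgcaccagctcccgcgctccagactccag
Ier3: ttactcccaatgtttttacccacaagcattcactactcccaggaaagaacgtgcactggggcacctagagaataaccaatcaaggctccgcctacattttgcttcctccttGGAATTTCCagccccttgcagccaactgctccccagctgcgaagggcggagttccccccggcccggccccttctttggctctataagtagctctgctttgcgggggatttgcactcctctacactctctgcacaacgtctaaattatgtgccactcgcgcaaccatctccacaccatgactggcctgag

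A pair of windows with AP-1 matches shows both directions. Il11 (chr7:4778092-4778391, - strand), an IL-6 family cytokine, was among the genes that fell most and has a match at -98. F3 (chr3:121723287-121723586, +), which encodes tissue factor, rose and has AP-1 matches at -146 and -135 and a κB-type match at -112.
Il11: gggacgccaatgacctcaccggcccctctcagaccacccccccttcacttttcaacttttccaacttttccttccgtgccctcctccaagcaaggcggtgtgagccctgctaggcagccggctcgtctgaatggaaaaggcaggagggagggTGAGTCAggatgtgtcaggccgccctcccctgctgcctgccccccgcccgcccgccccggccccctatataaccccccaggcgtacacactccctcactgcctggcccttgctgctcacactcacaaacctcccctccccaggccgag
F3: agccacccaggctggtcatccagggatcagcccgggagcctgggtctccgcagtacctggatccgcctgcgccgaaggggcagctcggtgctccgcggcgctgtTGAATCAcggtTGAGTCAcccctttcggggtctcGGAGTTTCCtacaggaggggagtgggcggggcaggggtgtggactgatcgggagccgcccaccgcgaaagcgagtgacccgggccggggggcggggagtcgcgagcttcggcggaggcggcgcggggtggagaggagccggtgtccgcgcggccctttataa

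Over the 11309 promoters of the 8838 tested genes that had one in the table, κB-type letters were in 1.95% and AP-1 letters in 5.01%. Chemokine promoters held κB-type letters in 4 of 12 cases (33.3%) and promoters of NF-κB and IL-1 family genes in 7 of 33 (21.2%). Promoters of DE genes held them in 2.63% (lower) and 3.16% (higher), and AP-1 letters in 8.55% and 8.23%. The shares of these 2 motifs were close to each other in both directions. E2F-type letters (TTTGGCGC or TTTCGCGC), searched on both strands as well, were in 1.57% of all promoters, 25.9% of those of DNA replication genes and 5.56% of those of mitosis genes, and STAT letters (TTCCNGGAA) were in 1.21% of all, in 4 of 158 promoters of genes DE higher (2.53%) and in 1 of 152 of genes DE lower (0.658%), counts too small to compare. A match is a description of these letters only.

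Secreted immune signals differed from list to list. Acute phase and antimicrobial proteins, which cells release to bind pathogens, iron or hemoglobin, had 6 of 14 tested members DE lower and 1 higher, with a median fold change of -0.49. Saa3, a serum amyloid A of inflamed tissue, took 9594, 9080 and 11806 CPM with shBrca2-CM and 33735, 34611 and 39981 CPM with shControl-CM. Hp, which encodes haptoglobin, a scavenger of free hemoglobin, measured 3456, 2799 and 4140 CPM against 17087, 18899 and 18445 CPM. Both genes separated the media by more than the whole spread within either group, at log2 fold changes of -1.80 ± 0.14 (adjusted p = 2.26e-05) and -2.36 ± 0.15 (7.28e-06), and growth medium lay far below both media, at 172 and 158 CPM for Saa3 and 83.6 and 58.5 CPM for Hp. Slpi, an inhibitor of leukocyte proteases, had 89.7, 64.7 and 93.2 CPM against 283, 365 and 395 CPM (-2.04 ± 0.18, adjusted p = 0.000102). Camp, the precursor of the antimicrobial peptide cathelicidin and on no list, had 5.79, 4.98 and 7.99 CPM against 34.0, 45.4 and 55.7 CPM (-2.76 ± 0.33, 0.000798). Saa1 (-3.02) and Lcn2 (-2.5) fell in the same range. The 1 member that rose, the lipopolysaccharide binding protein gene Lbp, had a fold change of 0.68 (called in 2 of 6 fits). Saa2 fell (-2.29, called in 3 of 6, and -3.68 to -1.94 over the 6 fits). Because Saa1 and Saa2 are near-identical copies, how their reads were divided is uncertain. The calls did not rest on the scaling: total counts gave 6 lower and 1 higher as well.

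Complement, the cascade that tags microbes and debris, did not follow the acute phase genes in 1 direction. Of 13 tested members, 3 were DE higher and 2 lower, with a median of 0.04. C4b, a component of the classical and lectin pathways, measured 192, 190 and 259 CPM with shBrca2-CM and 79.4, 109 and 106 CPM with shControl-CM (1.16 ± 0.17, adjusted p = 0.00356). Masp1, a protease that starts the lectin pathway, also rose (0.93 ± 0.18, 0.0183), as did C2 (0.92, called in 2 of 6 fits). Cfb, the protease component of the alternative pathway, went the other way, at 127, 146 and 144 CPM against 218, 296 and 393 CPM (-1.09 ± 0.19, 0.0109), and Serping1, the C1 inhibitor, fell by 0.60 (called in 2 of 6). The classical pathway proteases C1ra and C1s1 were not DE (0.04 and 0.04), nor was C1s2. Without shBrca2-CM replicate 2, 1 gene of the list was DE higher and 1 lower, and without shControl-CM replicate 1 the counts were 3 and 4.

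Among chemokines, 1 of 14 tested was DE higher and 3 lower. Cxcl1 had 30.4, 61 and 32.0 CPM with shBrca2-CM against 317, 186 and 70.6 CPM with shControl-CM. Its shControl-CM libraries spread more than 4-fold, and the call (-2.21 ± 0.47, adjusted p = 0.0286) was lost when any shBrca2-CM library was left out (-2.63 to -1.62 over the 6 fits). Cxcl2 stood at 3 or fewer counts in every shBrca2-CM library and was at least 2.78-fold lower (called in 3 of 6), and Cxcl3 was at least 1.97-fold lower, a call lost in all 6 fits. Cxcl5, which also attracts neutrophils, was not DE (0.07 ± 0.54, adjusted p = 0.979), at 44.8, 48.5 and 49.7 CPM against 72.4, 61.8 and 6.11 CPM, the last in shControl-CM replicate 3. Cxcl12, which holds leukocytes and CXCR4+ cells in place, moved the opposite way: it measured 1040, 1519 and 1182 CPM against 481, 521 and 352 CPM, and 3915 and 3621 CPM in growth medium (1.49 ± 0.18, adjusted p = 0.000729).

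The IL-6 family signals through gp130 to STAT3, and 3 of 20 tested genes of this list were DE lower and none higher. Il11 measured 14.5, 14.9 and 24 CPM against 176, 152 and 200 CPM (-3.23 ± 0.22, adjusted p = 1.05e-05). Lif, which activates STAT3 in neighboring cells, had 18.8, 26.1 and 27.5 CPM against 135, 94.7 and 86.3 CPM (-2.08 ± 0.24, 0.000589). Socs3, the feedback inhibitor induced by STAT3, had 72.3, 77.2 and 96.8 CPM against 152, 145 and 183 CPM (-0.92 ± 0.16, 0.0109). The median of the list was 0.09 with 11 of 20 fold changes above 0, but its sign was not stable: over the 6 fits that leave out a library it ran from -0.10 to 0.03, and it was above 0 only without shBrca2-CM replicate 2. Stat3 itself (-0.28) and the shared receptor Il6st (0.10) did not pass the test.

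In the NF-κB and IL-1 list, 1 of 25 genes was DE, the subunit Relb (-0.72, called in 2 of 6 fits), against 19 fold changes below 0 and a median of -0.18. With total counts none was DE and the median was -0.07. Leaving out any shBrca2-CM library or shControl-CM replicate 2 gave 0 DE genes, leaving out shControl-CM replicate 3 gave 3 lower, and leaving out replicate 1 gave 3 lower and 2 higher. Values did not overlap between media for 9 members on the lower side (36%, against 10.6% of all genes) and 1 on the higher side. Nfkbia, the inhibitor that NF-κB induces, was 308, 296 and 346 CPM with shBrca2-CM and 442, 409 and 395 CPM with shControl-CM (-0.36 ± 0.12, adjusted p = 0.202), which was a small shift that did not pass the test. Outside this list, Zc3h12a, an RNase that degrades cytokine mRNAs and is on no list, fell, at 18.8, 13.7 and 20.4 CPM against 83.9, 97.6 and 109 CPM (-2.41 ± 0.22, 0.000119). Ier3, on the MAP kinase feedback list, was 1636, 1385 and 1804 CPM against 3430, 3024 and 3221 CPM (-0.98 ± 0.13, 0.00144). Tnfrsf9, a costimulatory receptor, was the DE gene among 19 of the TNF superfamily (-1.13 ± 0.19, 0.00867).

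Among 14 genes of prostaglandin synthesis, transport and reception, 1 was DE lower and 1 higher. Ptges, the terminal synthase, had 63.7, 57.2 and 79.0 CPM against 195, 214 and 237 CPM (-1.65 ± 0.16, adjusted p = 0.00024), while Slco2a1, the transporter that takes up prostaglandins, had 124, 119 and 136 CPM against 59.6, 71.5 and 48.9 CPM (1.11 ± 0.18, 0.00481). The other 12, the cyclooxygenase genes Ptgs1 and Ptgs2 among them, were not DE. Among checkpoint ligands and nectins, 1 of 14 was DE: Nt5e, which makes adenosine outside the cell, fell from 52.5, 43.5 and 32.6 CPM with shControl-CM to 7.23, 8.71 and 9.76 CPM (-2.26 ± 0.31, 0.00199). Cd274, which encodes PD-L1, was near the detection limit, at 4.34, 1.24 and 0.888 CPM against 1.28, 0.966 and 1.36 CPM, and no difference was detectable at this depth (0.64 ± 0.89, 0.822).

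**Figure D2:**
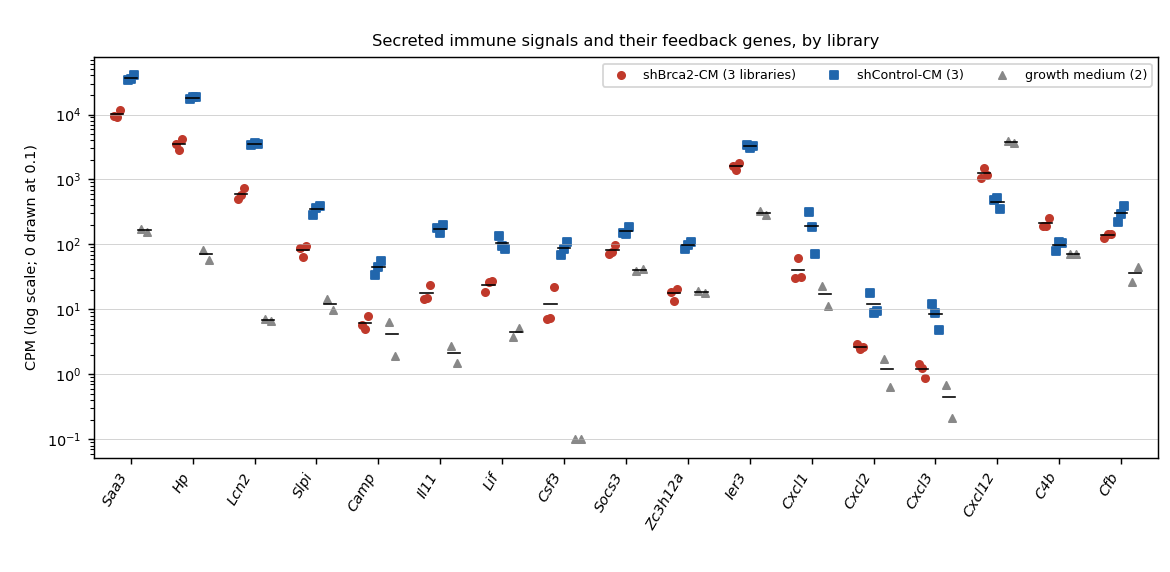
CPM on a log axis of 17 secreted immune signals and related genes in each library, with shBrca2-CM as circles, shControl-CM as squares, growth medium as triangles and a line at each group mean; values of 0 are drawn at 0.1. For every gene except Cxcl12 and C4b the circles lie below the squares, and for Saa3, Hp and Lcn2 growth medium lies further below.

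Growth factors and their responses were mixed. Of 29 tested growth and colony stimulating factors, 2 were DE higher and 4 lower. Csf3, the granulocyte colony stimulating factor, had 7.23, 7.47 and 22.2 CPM against 69.2, 85.0 and 109 CPM and was at 0 counts in both growth medium libraries (-2.68 ± 0.34, adjusted p = 0.00116). Gdnf, a neurotrophic factor, had 10.1, 12.4 and 7.10 CPM against 29.5, 36.7 and 30.6 CPM (-1.69 ± 0.31, 0.0133). Angptl4, which inhibits lipoprotein lipase, and Pdgfa, a mitogen for mesenchymal cells, fell by 0.94 and 1.14. In contrast, the lymphangiogenic factor Vegfd had 33.3, 57.2 and 36.4 CPM against 10.9, 19.3 and 14.9 CPM, and 293 and 275 CPM in growth medium (1.54 ± 0.31, 0.0216). Fgf23 also rose (2.37). Penk, the precursor of enkephalins, was another secreted product that fell, from 418, 270 and 238 CPM to 52.1, 62.2 and 45.3 CPM (-2.53 ± 0.24, 0.000137).

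Immediate early factors, transcription factors that cells switch on within minutes of stimulation, were lower in 5 of 28 cases and higher in 1, with a median of -0.29 (-0.18 with total counts). Values did not overlap on the lower side for 10 members (35.7%, against 10.6% of all genes). The lower calls numbered 3, 0 and 2 without shBrca2-CM replicates 1, 2 and 3, 1 without shControl-CM replicate 2, and 6 without shControl-CM replicate 1 or 3. Nr4a1, a nuclear receptor, was 127, 122 and 158 CPM against 240, 226 and 280 CPM (-0.84 ± 0.15, adjusted p = 0.0109), and Junb was 208, 212 and 202 CPM against 337, 330 and 308 CPM (-0.63 ± 0.12, 0.0197, called in 3 of 6 fits). The AP-1 subunit Fosl1, Atf3 and Ier2 fell by 0.73, 1.20 and 0.59, called in 3, 2 and 3 of 6 fits. Klf4, a factor of growth arrest and pluripotency, rose instead, with 86.8, 89.6 and 63 CPM against 39.7, 32.9 and 36 CPM (1.14 ± 0.20, 0.0105). Of 31 MAP kinase feedback genes, which dampen the same pathways, 1 was DE, namely Ier3, and the median was 0.12.

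The list of YAP and TEAD factors and their targets, which respond to stretch and adhesion, had 3 of 24 tested members DE higher and 2 lower, with a median of 0.27. Ccn2, the connective tissue growth factor, was 27.5, 37.3 and 25.7 CPM with shBrca2-CM and 3.84, 7.73 and 7.47 CPM with shControl-CM, against 108 and 119 CPM in growth medium (2.28 ± 0.36, adjusted p = 0.0047). Ankrd1, a nuclear ankyrin repeat protein, was 218, 310 and 249 CPM against 82.7, 80.2 and 72.7 CPM, and 521 and 485 CPM in growth medium (1.75 ± 0.16, 0.000137). F3 was 27.5, 37.3 and 38.2 CPM against 14.7, 10.6 and 10.9 CPM, and 237 and 245 CPM in growth medium (1.52 ± 0.28, 0.0149). The 3 genes thus lay between the other media with shBrca2-CM. The target Ccn1 and the factor Yap1 were not DE, with fold changes of 0.19 ± 0.17 (0.703) and -0.02 ± 0.14 (0.981). Nt5e and Gadd45b (-0.70, called in 2 of 6 fits), also on the list, fell.

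Other growth signals were represented by few DE genes. In the TGF-β list of 22, the latent TGF-β binding protein Ltbp1 had 36.2, 44.8 and 39.9 CPM against 11.5, 8.70 and 13.6 CPM (1.83 ± 0.27, adjusted p = 0.00314). The ligand gene Tgfb1 fell by 0.83 (called in 2 of 6 fits) while the matrix target Tgfbi rose by 0.61 (3 of 6). Of 21 BMP and activin genes, 1 was DE higher and 2 lower, among them the activin subunit Inhbb, which rose (1.78 ± 0.24, 0.00167), and the BMP target Id3, which fell (-0.80 ± 0.13, 0.00654). In the Notch list of 18, Dtx4, a ubiquitin ligase of the pathway, had 69.4, 58.5 and 49.7 CPM against 8.97, 14.5 and 15.6 CPM (2.21 ± 0.27, 0.000941), and Notch3 rose by 0.77 (called in 1 of 6). Sfrp1, a secreted Wnt antagonist, was the DE gene among 28 Wnt genes (1.80 ± 0.34, 0.0163). Among IGF binding proteins, Igfbp5 and Igfbp2 fell by 1.85 and 2.20 and Igfbp6 rose by 0.58, each called in 3 or fewer of 6 fits. Among 41 axon guidance genes, Rgmb rose by 1.40 (3 of 6) and Nrp2 fell by 0.60 (2 of 6).

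Transcription factors of mesenchymal identity went both ways, with the larger changes on the higher side. Osr2, a zinc finger factor of mesenchymal development, had 27.5, 44.8 and 53.3 CPM with shBrca2-CM against 4.48, 2.90 and 2.04 CPM (3.71 ± 0.40, adjusted p = 0.000338), and its paralog Osr1 rose by 0.86 (called in 3 of 6 fits). Nr2f1, an orphan nuclear receptor linked to cell dormancy, had 302, 304 and 252 CPM against 87.8, 85.0 and 91.0 CPM (1.72 ± 0.14, 5.14e-05). Snai1, a repressor of epithelial genes, had 68.0, 61 and 74.6 CPM against 115, 151 and 142 CPM (-0.97 ± 0.17, 0.00908), and Twist2 fell by 0.65 (2 of 6). Tbx3, a T-box factor on no list, had 8.68, 4.98 and 6.21 CPM against 28.8, 39.6 and 46.2 CPM (-2.5 ± 0.34, 0.00189). Altogether 5 of 35 list members were DE, 3 higher and 2 lower. The median of this list was 0.09 and turned from 0.45 without shControl-CM replicate 1 to -0.02 without replicate 3, and without replicate 1 the counts were 9 higher and 3 lower.

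Surface and progenitor markers of fibroblasts had 4 of 23 members DE higher and 2 lower, and without shBrca2-CM replicate 2 or shControl-CM replicate 2 none was DE higher. Pi16, a marker of adventitial fibroblasts (28.9, 23.6 and 27.5 CPM against 10.9, 12.6 and 14.3 CPM), Ly6c1, Pdgfra and S100a4 rose by 1.11, 1.04, 0.85 and 0.73, each called in 2 or 3 of 6 fits. Pdpn, or podoplanin, had 122, 99.6 and 117 CPM against 179, 239 and 307 CPM (-1.07 ± 0.19, adjusted p = 0.0118). Genes of retinoid handling, the hallmark of quiescent stellate cells, had 2 of 14 members DE higher and 1 lower. Dhrs3, which reduces retinaldehyde, had 382, 345 and 383 CPM against 227, 165 and 190 CPM (0.95 ± 0.14, 0.00378), while the secreted carrier Rbp4 had 2.89, 7.47 and 7.99 CPM against 27.6, 39.6 and 23.1 CPM (-2.18 ± 0.39, 0.0115). In the imprinted gene list 15 of 16 fold changes were above 0, against 53% of all genes. H19 (4.41) and Mest (2.28, called in 3 of 6) were DE higher, Dcn was DE lower, and the median was 0.41.

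With all 6 libraries the matrix glycoprotein and proteoglycan list had the most DE genes of the 52, 11 higher and 6 lower of 54 (31.5%). Its median was 0.33 (0.44 with total counts). By share, the acute phase (50%) and complement (38.5%) lists stood above it. Without shControl-CM replicate 1 the solute carriers had more DE genes, 5 higher and 17 lower against 12 and 7. Efemp1, a fibulin of elastic fibers, had 20.3, 24.9 and 15.1 CPM with shBrca2-CM, stood at 3 or fewer counts in each shControl-CM library, and was at least 6.93-fold higher. Prelp, a leucine-rich proteoglycan that anchors basement membranes, had 50.6, 85.9 and 74.6 CPM against 17.9, 28.0 and 19 CPM (1.76 ± 0.26, adjusted p = 0.00287), and its relative Fmod had 10.1, 26.1 and 22.2 CPM against 5.13, 6.76 and 6.79 CPM, and 347 and 347 CPM in growth medium (1.69 ± 0.40, 0.0563, called in 3 of 6 fits). Among the thrombospondins, adhesive glycoproteins of cell-matrix contacts, Thbs3 had 60.8, 77.2 and 72.8 CPM against 33.3, 30.9 and 38.7 CPM (1.06 ± 0.19, 0.0114), and Thbs1 and Thbs2 rose by 1.18 and 0.77. The adhesion protein Svep1, the matricellular protein Postn, the basement membrane genes Nid2 and Agrn and the syndecan Sdc2 rose by 1.53, 1.37, 1.04, 0.60 and 0.73. Apart from Efemp1, Prelp and Thbs3, these genes were called in 2 or 3 of 6 fits.

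The 6 members that fell included proteoglycans, as did those that rose. Dcn, or decorin, a binder of collagen and TGF-β, had 1222, 910 and 1127 CPM against 2257, 2141 and 1922 CPM, and only 105 and 80.0 CPM in growth medium (-0.93 ± 0.14, adjusted p = 0.00314). Sdc1, a cell surface heparan sulfate proteoglycan, had 508, 472 and 557 CPM against 803, 909 and 954 CPM (-0.77 ± 0.12, 0.00538). Gpc4, Gpc1, Smoc1 and Lum fell by 0.91, 0.65, 1.12 and 1.59, the last 3 called in 2 of 6 fits each. Scaling by total counts left 14 higher and 4 lower, and without shControl-CM replicates 1 or 3 the counts were 12 and 7 or 13 and 7. Leaving out shBrca2-CM replicate 1 gave 7 and 2, replicate 2 gave 3 and 2, and leaving out shBrca2-CM replicate 3 or shControl-CM replicate 2 gave 3 and 3. Outside the list, Abi3bp, an extracellular matrix protein, was at least 5.88-fold higher, Mgp, an inhibitor of calcification and the most abundant gene that rose, had 7447, 8829 and 7881 CPM against 5298, 4718 and 4402 CPM (0.77 ± 0.12, 0.00577), and Prg4, or lubricin, fell by 2.31.

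Collagen chains went both ways. Of 23 chains, Col8a1 rose by 1.84 (called in 2 of 6 fits) and Col23a1 and Col5a3 fell by 1.88 and 0.91, which made 3 DE genes (13%) around a median of 0.04. Values did not overlap for 7 chains on the higher side (30.4%, against 9.14% of all genes) and 3 on the lower (13%, against 10.6%). Of the 23 chains, 11 had an unadjusted edgeR p under 0.05, as had 1477 of all 11035 genes. Without shControl-CM replicate 1, 5 chains were DE higher and 4 lower, and without shBrca2-CM replicates 2 or 3 or shControl-CM replicate 2 there were 0 and 1. The fibrillar chain Col1a1 had a fold change of -0.59 ± 0.25 (adjusted p = 0.338), Col1a2 one of 0.64 ± 0.19 (0.132) and Col3a1 one of -0.04 ± 0.26 (0.975). The cross-linking enzyme Loxl1 rose by 0.69 (3 of 6) and the prolyl hydroxylase P4ha2 fell by 0.79 (1 of 6). Of the metalloproteinase inhibitors, Timp1 had 1166, 949 and 947 CPM against 1907, 1911 and 2440 CPM (-1.0 ± 0.14, 0.0023), while Timp3 had 124, 127 and 122 CPM against 73.7, 65.7 and 101 CPM (0.65 ± 0.18, 0.0952, called in 2 of 6). Among proteases, Mmp11 rose by 0.75 (3 of 6) and Mmp3 and Adamts7 fell by 0.62 (2 of 6) and 0.93. Cemip, which initiates hyaluronan breakdown, rose from 6.41, 7.73 and 6.79 CPM with shControl-CM to 23.1, 23.6 and 42.6 CPM (2.15 ± 0.35, 0.0064). In the coagulation and serpin list, Procr (called in 3 of 6) and Serpinf1 (3 of 6) fell by 0.90 and 0.66, and S100a10 rose by 0.54 (2 of 6) beside F3. Of 35 integrin and focal adhesion genes 1 was DE, the adaptor Tns2 (378, 386 and 372 CPM against 230, 200 and 210 CPM; 0.85 ± 0.12, 0.00283), while 4 were DE higher with total counts, and 4 higher and 1 lower without shControl-CM replicate 1.

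**Figure D3:**
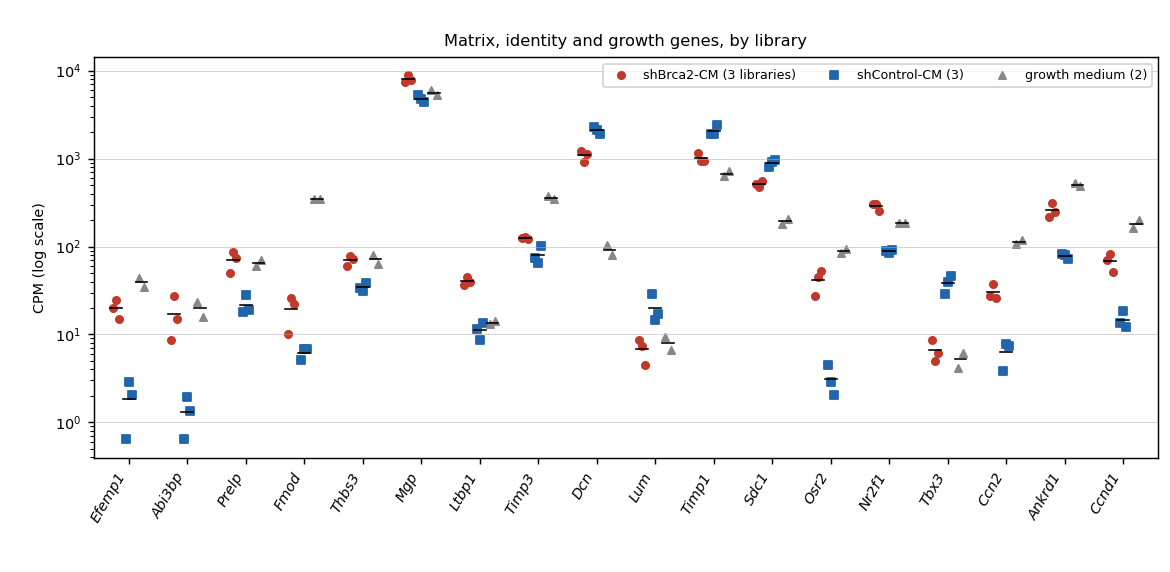
CPM on a log axis of 18 matrix, identity and growth genes in each library, with shBrca2-CM as circles, shControl-CM as squares, growth medium as triangles and a line at each group mean. Circles lie above squares for 13 genes (Efemp1 to Timp3, Osr2, Nr2f1, Ccn2, Ankrd1 and Ccnd1) and below them for Dcn, Lum, Timp1, Sdc1 and Tbx3.

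Cell division genes held few DE members. Ccnd1, the cyclin that links growth signals to G1, rose, with 70.9, 82.1 and 51.5 CPM against 13.5, 18.4 and 12.2 CPM, and 164 and 201 CPM in growth medium (2.25 ± 0.26, adjusted p = 0.000701). Ccne1, the next cyclin of G1, fell by 0.79 and the inhibitor Cdkn2d by 0.69 (called in 2 and 1 of 6 fits), and these 3 were the DE genes among 27 of that list. Mitosis genes had 3 of 61 members DE lower (4.92%), Ckap2l, Cdca8 and Prc1, at -0.71, -0.58 and -0.56, each called in 2 or fewer of 6 fits. Their values did not overlap on the lower side for 20 members (32.8%, against 10.6% of all genes) and on the higher side for 0 (9.14% of all genes). Of the fold changes, 48 were below 0 (47% of all genes were), with a median of -0.23. The lower calls numbered 16 without shControl-CM replicate 1, 0 without shBrca2-CM replicate 2 or 3 or shControl-CM replicate 2, and 0 with total counts, where the median was -0.11 beside 0.14 for all genes. DNA replication and repair genes, by comparison, had a median of -0.06, and 1 of 60 was DE, Rad51ap1, a partner of the recombinase of homologous recombination (0.74 ± 0.19, 0.083, called in 1 of 6). The proliferation marker Mki67 overlapped between media, at 122, 126 and 95.9 CPM against 137, 161 and 119 CPM. No p53 target among 30 was DE by edgeR's test or DESeq2's, though 1 was DE higher with total counts and 1 lower without shControl-CM replicate 1. Of the 30, 4 had an unadjusted edgeR p under 0.05, as had 1477 of all 11035 genes. The median was 0.07, and Cdkn1a had a fold change of 0.02 ± 0.14 (0.975).

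The core machinery of protein synthesis held few DE genes. Of 81 cytosolic ribosomal protein genes, 4 were DE higher and 0 lower, among them Rps3a1, Rpl31 and Rpl7, at 0.51, 0.53 and 0.60, each called in 1 or 2 of 6 fits. Total counts called 9 higher and 0 lower, leaving out shControl-CM replicate 1 gave 5 higher and 4 lower, and leaving out shControl-CM replicate 2 or shBrca2-CM replicate 1 or 2 gave 0. Values lay higher without overlap for 22 of the 81 (27.2%, against 9.14% of all genes). The median was 0.09 (0.21 with total counts) beside 0.03 (0.14) for all genes. Among 58 translation factors, the initiation factor Eif1a rose (43.4, 44.8 and 32.0 CPM against 16.7, 11.6 and 13.6 CPM; 1.51 ± 0.27, adjusted p = 0.0124), as did Eif4ebp3 (0.71, called in 1 of 6). None of 73 mitochondrial ribosomal proteins was DE by edgeR's test (6 at an unadjusted p under 0.05, 1 by DESeq2), and neither was any of 22 tRNA synthetases (2 and 0). Of all 11035 genes, 1477 had an unadjusted edgeR p under 0.05. Without shControl-CM replicate 1, 2 mitochondrial ribosomal proteins were DE lower and 2 synthetases higher. Oxidative phosphorylation subunits had 3 of 79 DE lower, Atp5md, Ndufc2 and Ndufb8 (-1.09, -0.63 and -0.55, called in 2, 1 and 1 of 6 fits). Of these subunits, 17 lay lower without overlap (21.5%, against 10.6% of all genes). Their median of -0.08 became 0.03 with total counts, and 7 were DE lower without shControl-CM replicate 1. Single genes fell in the proteasome (Psmd2), splicing (Hnrnpab) and secretory (Kdelr3) lists and 1 rose in ribosome biogenesis (Npm3), each called in 1 or 2 of 6 fits and between -0.68 and 1.38. Without shControl-CM replicate 1 the splicing list had 6 DE higher and 3 lower and the secretory list 5 and 8. Many ribosomal protein genes have pseudogene copies, so their reads may have been divided.

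Glycolysis and hypoxia response genes were lower with shBrca2-CM in 8 of 40 cases and higher in 1, with 32 fold changes below 0 and a median of -0.29 (-0.18 with total counts). Without shBrca2-CM replicate 1, 2 or 3 the lower calls were 4, 3 and 3, without shControl-CM replicate 2 they were 5, and without shControl-CM replicate 1 they were 11. Slc16a3, which exports lactate, had 98.4, 126 and 114 CPM against 275, 358 and 371 CPM (-1.54 ± 0.16, adjusted p = 0.000301). Slc2a1, the main glucose importer, had 260, 239 and 287 CPM against 411, 453 and 482 CPM (-0.75 ± 0.13, 0.00867), and Ldha, which turns pyruvate into lactate, had 707, 706 and 589 CPM against 1012, 1016 and 1161 CPM (-0.65 ± 0.13, 0.0181). Together with Aldoa (-0.69), Pfkl (-0.68) and Pkm (-0.54), called in 3, 2 and 1 of 6 fits, these made 6 genes of glucose import, glycolysis and lactate export that fell. Gapdh, a glycolytic enzyme, was not DE (2.19 ± 0.77, adjusted p = 0.213), and its value rested on shBrca2-CM replicate 2, with 15.9, 240 and 24.9 CPM against 23.1, 24.2 and 14.9 CPM. Its level in growth medium was 436 and 528 CPM. P4ha2 also fell, and Ddit4, an mTOR inhibitor induced by hypoxia and stress, fell by 0.98. Adm, or adrenomedullin, another gene of hypoxia, rose instead, with 17.4, 22.4 and 12.4 CPM against 2.56, 2.90 and 3.40 CPM (2.52 ± 0.43, 0.00867), while the receptor component Ramp3 had 10.1, 16.2 and 11.5 CPM against 66.6, 68.6 and 59.8 CPM (-2.33 ± 0.24, 0.000305). Stc1, a secreted hormone also induced by low oxygen, was at least 3.05-fold lower (called in 2 of 6).

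In the NRF2 and glutathione list of antioxidant genes, 5 of 51 were DE lower (9.8%) and 0 higher, while the other 46 did not pass the test, with a median of -0.15 (-0.04 with total counts, where 4 were lower). The count was 9 without shControl-CM replicate 1 and 3 without shBrca2-CM replicate 1 or 2. Sod3, the extracellular superoxide dismutase, had 401, 307 and 516 CPM against 1477, 1517 and 859 CPM (-1.63 ± 0.23, adjusted p = 0.00238), and the peroxiredoxin Prdx5 had 684, 600 and 702 CPM against 1333, 1362 and 1575 CPM (-1.08 ± 0.12, 0.00056). Gsto1, Hmox1 and Gsr fell by 0.94, 0.91 and 0.87, with Gsr called in 1 of 6 fits. The metallothioneins Mt1 and Mt2, which bind zinc and copper, were among the most abundant genes of the cells: Mt2 had 7399, 6635 and 9110 CPM against 15394, 17446 and 19612 CPM (-1.15 ± 0.14, 0.00104) and Mt1 5979, 6599 and 7515 CPM against 10238, 12835 and 15309 CPM (-0.91 ± 0.15, 0.00734), though reads of such similar genes may have been divided. Of the metal transporters, the iron exporter of phagosomes Slc11a1 was at least 4.09-fold lower, Slc11a2, the general iron importer, fell by 0.66, and the zinc importers Slc39a4 and Slc39a14 fell by 2.33 and 0.63 (the latter called in 2 of 6). In all, 5 of 21 members of the metal list, which does not hold Slc39a4, were DE (23.8%). All 5 were lower (3 without shBrca2-CM replicate 2), while the list had 9 fold changes above 0 and a median of -0.14.

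Stress responses were otherwise represented by 3 of 41 genes of the integrated stress and unfolded protein list, Ddit4, Ppp1r15a (-0.76, called in 2 of 6 fits) and Cebpb (-0.64, 3 of 6), all lower. Without shControl-CM replicate 1, 3 genes of this list were DE higher and 3 lower. Cebpb, a transcription factor of acute phase genes, had 405, 462 and 470 CPM against 659, 652 and 810 CPM. In lipid metabolism, Dgat2, which makes triglycerides, had 47.7, 37.3 and 48.8 CPM against 87.8, 93.7 and 123 CPM (-1.15 ± 0.20, adjusted p = 0.00813), and Fabp5 and Cpt1c rose by 0.89 and 0.75 (called in 3 and 1 of 6). Of 68 lysosomal genes Npc2 rose and Ctsh fell, and of 37 autophagy genes Atg12 and Gabarapl1 rose, each called in 2 or 3 of 6. No circadian clock gene among 19 was DE by edgeR's test or DESeq2's, though 1 was higher and 1 lower without shControl-CM replicate 1. Of the 19, 2 had an unadjusted edgeR p under 0.05, as had 1477 of all 11035 genes.

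Solute carriers, the largest list with 178 tested genes, had 11 DE lower (6.18%) and 2 higher, with 8 lower and 4 higher under total counts. Without shControl-CM replicate 1 there were 17 lower and 5 higher, and without shBrca2-CM replicates 1, 2 and 3 there were 7, 7 and 5 lower and 1, 0 and 0 higher. Lower calls included Slc11a1, Slc39a4, Slc15a3, a peptide and histidine transporter of lysosomes (13, 16.2 and 7.10 CPM against 30.8, 37.7 and 64.5 CPM; -1.89 ± 0.38, adjusted p = 0.0211), and Slc24a3, which was at least 2.62-fold lower (called in 4 of 6 fits and not by DESeq2 or in thinned libraries). Values lay lower without overlap for 32 members (18%, against 10.6% of all genes) and higher for 13 (7.3%, against 9.14%). The median of the list was -0.03.

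**Figure D4:**
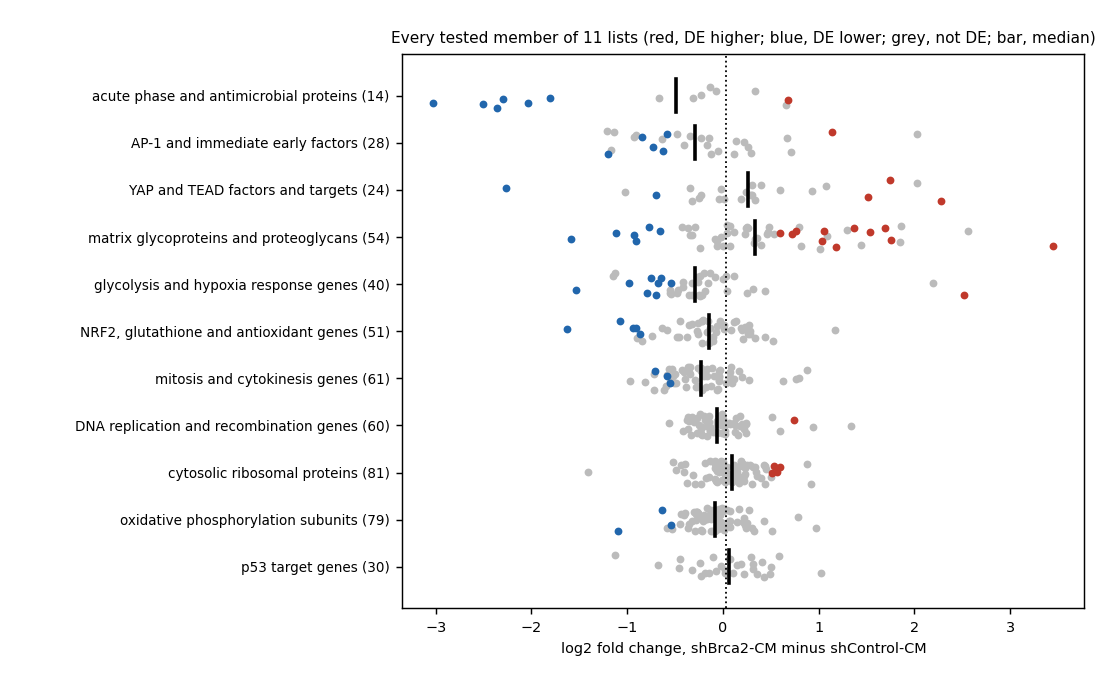
Log2 fold change (x axis, shBrca2-CM minus shControl-CM) of every tested member of 11 gene lists, 1 point per gene, red where DE higher, blue where DE lower and grey where not DE, with a bar at the median of each list and a dotted line at the median of all genes (0.03). The acute phase list has a separate group of 6 blue points between -3.02 and -1.80, whereas the mitosis list has a median of -0.23 with 3 blue points.

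Genes outside the lists completed the largest changes. Inmt, a methyltransferase, was at least 6.33-fold higher, and Apod, a lipocalin of lipid transport, had 26.0, 38.6 and 32.0 CPM against 2.56, 1.93 and 3.40 CPM (3.56 ± 0.37, adjusted p = 0.000313). Sprr1a, a cornified envelope protein, had 127, 222 and 138 CPM against 10.9, 29.0 and 22.4 CPM (3.03 ± 0.31, 0.000249), and Cdo1, which degrades cysteine, had 85.3, 161 and 138 CPM against 34.6, 25.1 and 23.8 CPM (2.22 ± 0.25, 0.000479). Rcan2, a calcineurin inhibitor, and Cav1, or caveolin-1, rose by 2.53 and 2.65, the latter called in 2 of 6 fits (2.01 to 3.93 over the 6). Pamr1, Cfap100, the secreted chaperone Clu and Katnbl1 rose by 3.25, 2.76, 2.49 and 2.20, Katnbl1 in 2 of 6 fits, and Gm6793, a transcribed pseudogene, had 1.45, 4.98 and 0 CPM against 16.7, 49.3 and 34.6 CPM (-3.99, and -5.62 to -3.23 over the 6 fits). In the other direction, Ism1, a secreted isthmin, had 4.34, 2.49 and 11.5 CPM against 50.6, 44.4 and 37.4 CPM (-2.68 ± 0.39, 0.0031), and Rasl12 and the uridine phosphorylase Upp1 fell by 2.54 and 2.5. The metabolite receptor Gpr84 was at least 2.35-fold lower (called in 2 of 6). Among the most abundant genes, Lgals1, which encodes galectin-1, and Ly6e rose by 0.57 and 0.68 and the cytokine Mif fell by 0.85, each called in 2 or 3 of 6.

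The level of each list in each library shows how far these patterns rest on single domes. The acute phase list stood at -0.19, -0.68 and -0.17 with shBrca2-CM and at 0.38, 0.44 and 0.46 with shControl-CM, as the median over members of log2 CPM centered per gene. Glycolysis genes stood at -0.16, -0.15 and -0.22 against 0.18, 0.24 and 0.39, and mitosis genes at -0.05, -0.10 and -0.24 against 0.15, 0.17 and 0.17. None of these lists overlapped between media. Matrix glycoproteins stood at -0.03, 0.22 and 0.14 against -0.14, -0.05 and -0.13, a narrow gap, and mesenchymal transcription factors at 0.12, 0.14 and 0.05 against 0.34, -0.07 and -0.50, with the shControl-CM domes on both sides.

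**Figure D5:**
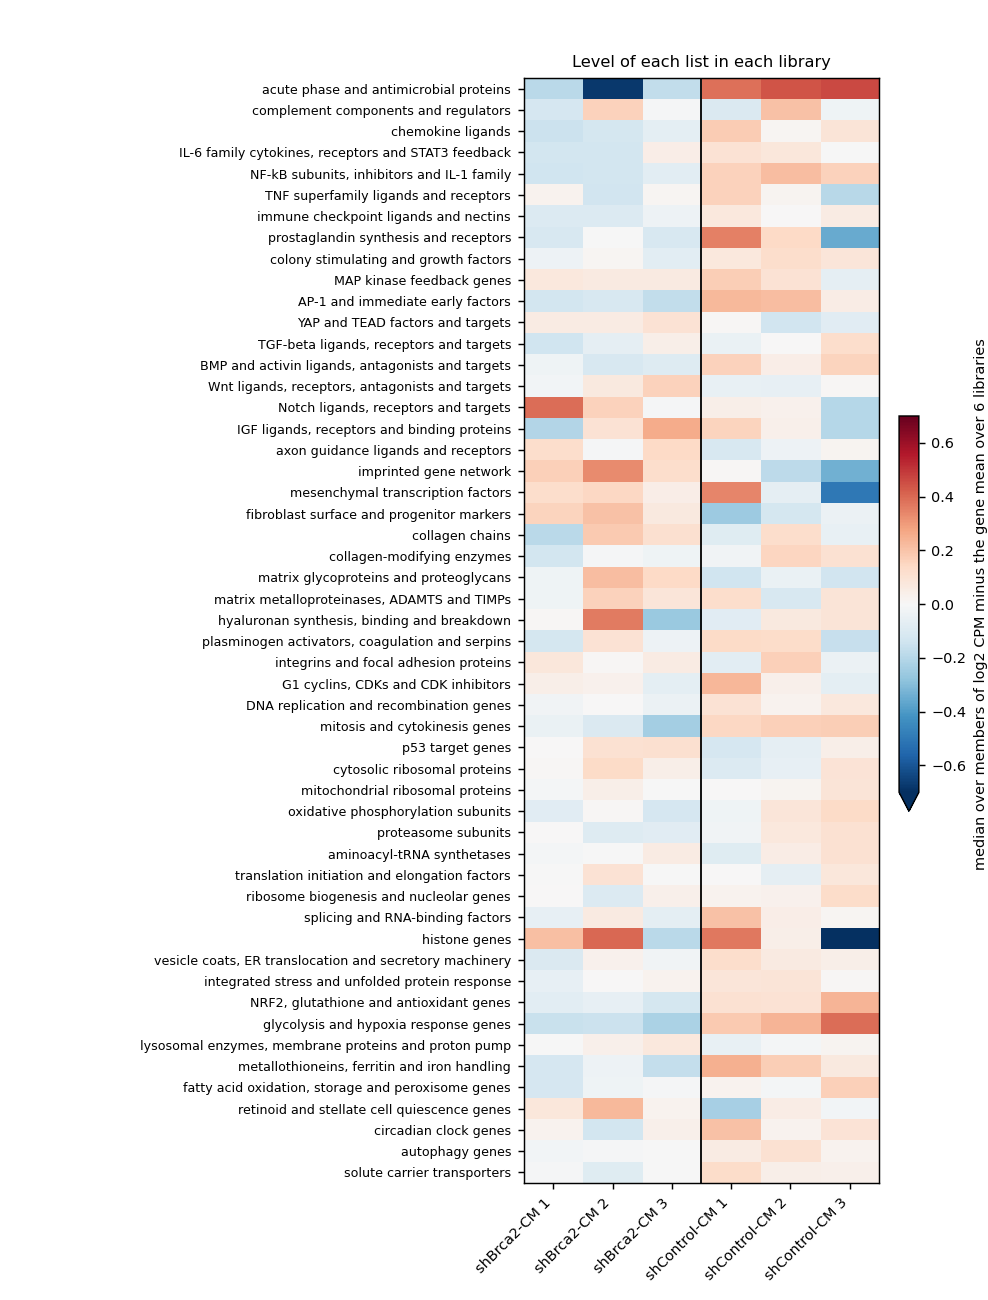
Level of each of 52 gene lists (rows) in the 6 libraries (columns), as the median over members of log2 CPM minus the mean of each gene over the 6 libraries; blue is low, red is high, and the color scale is cut at -0.7. The acute phase row changes from blue to red between the media, whereas the histone row (3 genes, -0.99) and the mesenchymal factor row (-0.50) are lowest in shControl-CM replicate 3.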

How the data were processed

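RNA of 8 PSC domes was sequenced as MARS-seq 3′ libraries, and the 6 that received organoid-conditioned medium were compared. The authors deposited, for each of 12160 genes, the raw count in every dome, with replicates not pooled. The submitters' processing notes name mm10, STAR 2.4.2a, HTSeq, bcl2fastq, cutadapt and DESeq2; the treatment of molecular identifiers and the rule that selected the genes are not given in the sources used here. 1 per-sample column matched no sample and was not used. No mitochondrially encoded gene was among those counted.

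Groups came from the recorded treatment. The domes are described as biologically independent, and p-values measure the spread between them. They do not cover variation between hairpins, transduced organoid cultures or batches of medium, whose numbers the labels do not give. An effect of Brca2 loss therefore cannot be told apart from a difference of these kinds. Counts were fitted in R 4.3.3 with edgeR 4.0.16 (TMM, quasi-likelihood test), keeping genes whose counts summed to at least 10 over the 6 libraries, without a replicate block. DE thresholds follow the study's methods. CPM are normalized over all 8 libraries. A group with 3 or fewer counts in each library was taken as at the floor, which is 1.92 to 4.34 CPM among these libraries, and folds against it are lower bounds, taken as the other group's mean over the highest floor of a library; floors cover counting error only. On simulated counts of 10845 genes, edgeR recovered 95 of 100 genes set to differ by 2 on the log2 scale and 43 of 100 set to differ by 1, with 24 false calls, and DESeq2 1.42.0 recovered 91 and 41, with 15. The simulation drew each gene independently and held no library that departed as a whole, as shControl-CM replicate 3 did. These figures may therefore be too favorable for these data.

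The comparison, the 52 gene lists and the marker lists were chosen with earlier results of these data known. Named genes were the 20 with the largest change each way among DE genes with at least 10 CPM in the higher group, the 10 most abundant DE genes each way, up to 5 DE members per list (or 2 abundant members where none was DE), and Brca2, Clu and Cd274. Some items chosen by this rule are not reported here. Further list members and the genes of the last part were named after their values were seen. Promoters came from RefSeq (GRCm38.p6) by symbol. Alternatives were DESeq2's likelihood ratio test, other scalings, filters and thresholds, all 3 groups in 1 fit, a replicate block, thinned libraries and leaving out each library.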

Additional observations from a re-analysis of the deposited data

How the results depend on the processing

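The number of DE genes was 345 (174 higher, 171 lower). It was 283 with DESeq2's likelihood ratio test (128 and 155), 339 when DESeq2's size factors replaced TMM (158 and 181), 370 under total counts (250 and 120), 359 without a filter (175 and 184), 352 with a filter of 30 counts (187 and 165), 433 with all 3 groups in 1 fit (217 and 216) and 319 in libraries thinned to the smallest total (163 and 156), all within 1.5 times the main count. An adjusted p under 0.05 and a log2 fold change over 1 left 130 (66 and 64). Leaving out 1 library gave 128 to 976 DE genes, 59 to 506 of them higher and 69 to 470 lower; the largest number came without shControl-CM replicate 1 and the smallest without shBrca2-CM replicate 2. The cause was not tested. With a replicate block, 311 genes were DE (159 and 152), and 288 of the 345 remained. Deviations of same-numbered libraries correlated at -0.03, -0.0032 and 0.11, and those of other pairs across media at -0.14 to 0.15. With 3 libraries per group these values depend on each other and cannot decide whether the domes were paired. The replicate numbers have no stated meaning, so the block was not used. No DE gene changed sign in any alternative. Of 165 named DE genes, 135 were called by DESeq2, 144 with total counts, 144 with the replicate block, 139 in thinned libraries and 69 in all 6 fits with 1 library left out. List medians moved by less than the spread between libraries in 663 of 780 alternative values. These include the stricter thresholds, which reuse the same fit and cannot move a median. The spread is that of each list itself, so lists that vary more between libraries pass more easily. Depth limits genes under the floor of the smallest shBrca2-CM library, 4.34 CPM, and also calls above it. In thinned libraries 274 of the 345 calls remained, and Timp3 was among those lost.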

Other observations

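Genes on no list also changed, and those given here were chosen after their values were seen; each was called in all 6 fits that leave out a library unless stated. Several encode secreted hormones and their handling. Cck, the gut and brain hormone cholecystokinin, had 606, 464 and 897 CPM with shBrca2-CM against 1661, 1358 and 1665 CPM with shControl-CM (log2 fold change -1.22, edgeR adjusted p = 0.00588). Rarres2, which encodes the chemoattractant chemerin, had 119, 153 and 204 CPM against 520, 697 and 829 CPM (-2.06, 0.000249). Stc2, a stanniocalcin, fell by 1.85. Of the vesicle proteins Ptprn and Syt7 fell by 1.26 and 1.69, whereas Cplx2, a complexin, rose by 1.55.

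Of genes for actin-associated proteins, Tpm1, a tropomyosin, had 696, 818 and 800 CPM against 450, 382 and 361 CPM (0.98, adjusted p = 0.00167), Cnn2, a calponin, rose by 0.79, and the LIM protein gene Fhl2 rose by 1.48. All 3 were higher still in growth medium, for Tpm1 at 1206 and 1488 CPM. Tagln2, a transgelin, fell by 0.78, and Micall2 and Parvb fell by 0.58 and 0.59, called in 3, 2 and 1 of 6 fits. No list of actin-associated genes was counted, and those named here are not all that were tested. Gas6, the ligand of the TAM receptors that bind dying cells, had 63.7, 88.4 and 92.3 CPM against 28.8, 25.1 and 36 CPM (1.46, 0.00279), and 826 and 610 CPM in growth medium. Its receptor Mertk had 11.6, 7.47 and 6.21 CPM against 0.641, 0 and 0.679 CPM, without overlap, but its mean count was too low for a call. Nos2, the inducible nitric oxide synthase, had 5.79, 4.98 and 4.44 CPM against 17.9, 18.4 and 19.7 CPM (-1.86, 0.0181, called in 4 of 6 fits).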
